A study of Homo sapiens with 22 samples.

Results

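RNA levels were compared directly between 22Rv1 and LTAD, the prostate cancer lines of the series other than LNCaP, in 8 of its 22 samples. The members are the 4 libraries of each line: an input library (total RNA of the lysate) and a PSF-RIP library (RNA recovered with an antibody to PSF) after vehicle, and the same pair after dihydrotestosterone (DHT). Vehicle was ethanol, DHT was given at 10 nM, and both lasted 24 h. 22Rv1 is an established human line derived from a prostate xenograft that relapsed after castration. LTAD is named as a prostate cancer cell line by the labels, which do not spell the name out. 22Rv1 was kept in medium with 10% whole serum and LTAD in medium with 10% charcoal/dextran-treated serum, which is depleted of steroids, so line and routine medium cannot be told apart. Both then spent 3 days in medium with 2.5% treated serum before the hormone. Each combination of line, treatment and assay has 1 library, and the labels do not say that input and PSF-RIP came from separate cultures. There may thus be only 2 cultures per line, and a p-value here speaks for the scatter among libraries, which may be technical.

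Prostate cancer cells depend on androgen, a steroid signal that switches on genes such as the kallikreins. Lines that grow without added androgen can keep the androgen response, feed on other growth signals, or take on traits of other lineages such as neuroendocrine cells. PSF, the product of SFPQ, is a nuclear RNA-binding protein of the DBHS family that acts in splicing and in paraspeckles, and the study asked which RNAs it binds in these lines. The levels in input and PSF-RIP libraries serve here as parallel readings of how each line differs.

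Mapped reads numbered 1073228 to 3014049 in the inputs and 5894375 to 10439461 in the PSF-RIP libraries, so the inputs carry the larger counting error. The files list 20294 gene symbols, of which 20242 were kept after removing near-identical copies. Of these, 12778 passed the filter on low counts and were tested. Low counts of genes high in 22Rv1 were seen in the LTAD PSF-RIP libraries, more of them after DHT. For 121 genes with at least 500 reads in 22Rv1 and 0 in both LTAD inputs, the summed level was 8912 to 10815 CPM (read counts scaled to one common library total) in the 22Rv1 libraries, 18.5 in LTAD vehicle PSF-RIP and 47.9 in LTAD DHT PSF-RIP. The 0 in the LTAD inputs was set by this choice. A mirror set held 27 genes with at least 500 reads in LTAD and 0 in both 22Rv1 inputs. Their reads numbered 68 in 22Rv1 vehicle PSF-RIP and 22 in 22Rv1 DHT PSF-RIP. Whether reads of either set were carried over between libraries was not tested. Those of the 121 genes enter the LTAD reads, ratios and DHT terms given below. The value without the LTAD DHT PSF-RIP library therefore follows where a result rests on it. Where that library holds every LTAD read of a gene, LTAD is at 0 without it, and the fitted value then depends on the prior count and is no bound. A gene counted as differing where edgeR's quasi-likelihood test gave an adjusted p under 0.05 with assay and treatment in the model, and where input and PSF-RIP differed in the same direction. Differences are log2 of 22Rv1 over LTAD, so that a positive value is higher in 22Rv1.

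The lines differed at most genes. Of the 12778 genes, 5019 (39.3%) were higher in 22Rv1, 4144 (32.4%) were higher in LTAD and 3615 met neither call. Differences of at least 2-fold favoured 22Rv1 at 2683 genes (21%) and LTAD at 1776 (13.9%). Of the 9163 genes called, 8500 kept one sign in all 4 combinations of assay and treatment. The median log2 difference of all genes was 0.08. Across genes, the difference in input and that in PSF-RIP had a Pearson correlation of 0.961, which describes genes of the same libraries and not independent replicates. A further 84 genes passed the adjusted p but had opposite signs in the assays and were not called.

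**Figure D1:**
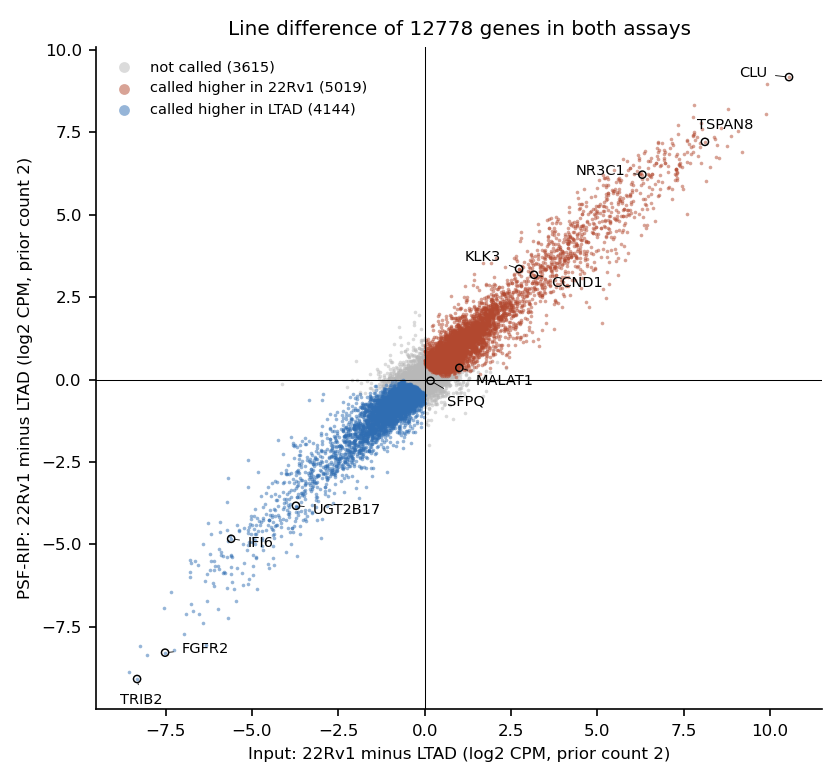
Each point is 1 of 12778 genes, placed by its 22Rv1 minus LTAD difference in log2 CPM in the input libraries (x axis) and in the PSF-RIP libraries (y axis), with a prior count of 2. Red points (5019) were called higher in 22Rv1, blue points (4144) higher in LTAD and grey points (3615) were not called, and the genes lie along the diagonal.

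The gene that encodes the precipitated protein met neither call. SFPQ stood at 154, 161, 279 and 292 CPM scaled by the TMM method in 22Rv1 (vehicle input, DHT input, vehicle PSF-RIP and DHT PSF-RIP, an order kept below) and at 144, 135, 287 and 298 in LTAD. The SFPQ difference was 0.05 ± 0.10 (SE, adjusted p = 0.657): it was higher in 22Rv1 in both inputs and lower in both PSF-RIP libraries.

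The genes with the largest differences were at or near 0 in one line. In LTAD, 318 tested genes had at most 3 reads over the 4 libraries and 108 had none. In 22Rv1, 125 had at most 3 and 62 had none. Such a gene could pass the filter only through the line where it was high, so its being called follows from that choice and only its level is informative. Where a line had no read, the fold is a lower bound against 3 reads over its 4 libraries, and for 1 to 3 reads a ratio is printed with its exact 95% interval. Both cover counting error only.

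TRIB2, a pseudokinase, led the genes higher in LTAD (chr2:12856998-12882858, plus strand, hg19, as all gene positions here). TRIB2 had no read in any 22Rv1 library and stood at 142, 165, 239 and 280 CPM in the LTAD libraries, at least 1328-fold higher. PXDN, an extracellular matrix peroxidase, was at least 809.5-fold higher in LTAD, where it stood at 113 to 160 CPM. The receptor-type phosphatase PTPRM was at least 781-fold higher, at 49.3 to 202 CPM. The chemokine receptor ACKR3 was at least 766-fold higher, and its LTAD level was 228 and 236 CPM after vehicle against 90.8 and 69.2 after DHT. The growth factor receptor FGFR2 (chr10:123237844-123357972, minus strand) was at least 748-fold higher, at 79.8 to 160 CPM. The cancer-testis gene MAGEA10 was at least 505-fold higher, at 52.1 to 106 CPM. None of these 6 genes had a read in 22Rv1.

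The other genes of this set had 1 to 16 reads in 22Rv1. The ratio was 1875 (interval 336 to 74091) for the homeobox gene IRX4, 1358 (243 to 53686) for NLRP2 and 1126 (202 to 44520) for the nucleoredoxin gene NXN. It was 445 (152 to 2159) for the Notch ligand JAG1 and 392 (134 to 1903) for S100A14. SPON2, an extracellular matrix protein, had 16 reads in 22Rv1 and stood at 581 to 757 CPM in LTAD, a log2 difference of -9.29 ± 0.19. Against LNCaP on a scale shared by the 12 libraries, these genes were not all shared with LNCaP. SPON2 reached 1376 to 1532 CPM and ACKR3 122 to 287 CPM in LNCaP, whereas TRIB2 stood at 1.66 to 4.53, FGFR2 at 3.32 to 8.12 and S100A14 at 0.503 to 2.49.

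In the other direction, the tetraspanin TSPAN8 had 1 read in LTAD, a ratio of 2024 (362.8 to 79992) and stood at 250 and 142 CPM in 22Rv1 after vehicle against 69.6 and 43.5 after DHT. The cadherin CDH6 had a ratio of 1606 (288 to 63479). The vasopressin receptor AVPR1A had 1273 (228 to 50311), the membrane protein STOM 1224 (219 to 48381) and the replication-dependent histone gene HIST1H3C 915 (164 to 36200). HIST1H4D, another histone gene, had 903 (309 to 4381), the nicotinic receptor subunit CHRNB2 742 (205 to 6130), S100A10 736 (203 to 6081) and UGT8 724 (247.5 to 3515). CDH3 and the neuronal glycoprotein GPM6A had 4 LTAD reads each, all in the DHT PSF-RIP library, and log2 differences of 9.27 ± 0.30 and 9.08 ± 0.29. Without that library the fitted values were 12.41 for CDH3 and 12.31 for GPM6A. By the number of reads in the line where they are high, EPHA7 and TIMP1, an inhibitor of matrix metalloproteases, belong here too, with ratios of 669 (228.5 to 3247) and 553 (189 to 2685). In LNCaP, UGT8 stood at 3.02 to 4.98 CPM and EPHA7 at 0.829 to 3.25. TIMP1 stood at 0.252 to 1.66, and AVPR1A, S100A10 and GPM6A had no read in any LNCaP library.

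**Figure D2:**
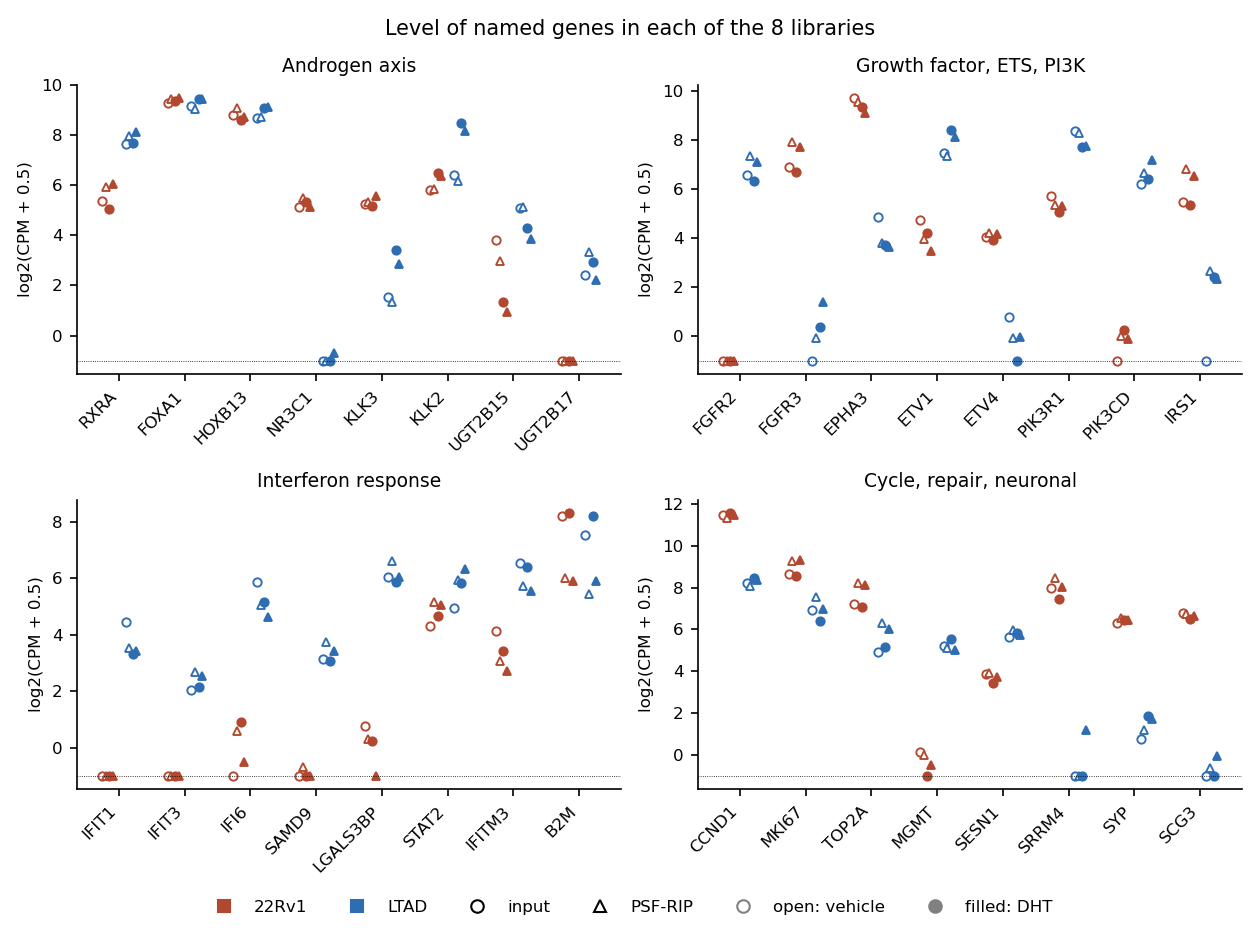
Each symbol is 1 library, on a log2 axis of CPM + 0.5, with 22Rv1 in red and LTAD in blue, circles for input, triangles for PSF-RIP, open for vehicle and filled for DHT, and a dotted line where 0 reads fall. FOXA1, HOXB13 and B2M lie close together in both lines, whereas FGFR2, UGT2B17, IFIT1 and IFIT3 have no 22Rv1 read and NR3C1 has 1 LTAD read.

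Nuclear receptors differed in both directions. The forkhead factor FOXA1 (0.13 ± 0.11, adjusted p = 0.27) and the prostate homeobox gene HOXB13 (-0.09 ± 0.13, adjusted p = 0.546) met neither call. Of 29 tested nuclear receptor and lineage genes, 9 were higher in 22Rv1 and 10 in LTAD, beside 39.3% and 32.4% of all genes, and their median was -0.03. NR3C1, the glucocorticoid receptor (chr5:142657496-142783254, minus strand), stood at 34.7, 40, 44.4 and 34.7 CPM in 22Rv1 and had 1 read in LTAD, a ratio of 696 (interval 124.5 to 27536). NR3C1 had no read in the 4 LNCaP libraries. NR2F1, an orphan nuclear receptor, stood at 16.5 to 58.9 CPM in 22Rv1 and had 4 reads in LTAD, 3 of them in the DHT PSF-RIP library (7.44 ± 0.31, and 8.35 without it). RXRA, the shared partner of many nuclear receptors, was higher in LTAD (-2.22 ± 0.12), and the homeobox factor ONECUT2 was higher in 22Rv1 (1.84 ± 0.11).

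Of 39 tested genes from a list of known androgen-induced genes, 17 were higher in 22Rv1 and 13 in LTAD. The shares of all genes were 39.3% and 32.4%. The list had a median of 0.15, near the 0.08 of all genes. Without the LTAD DHT PSF-RIP library, 16 and 9 of 38 were called. The kallikreins, secreted proteases and classical androgen targets, differed in opposite directions. KLK3, which encodes prostate-specific antigen, stood at 37.2, 35.9, 40 and 46.8 CPM in 22Rv1 and at 2.4, 10.3, 2.06 and 6.71 in LTAD (3.12 ± 0.25, adjusted p = 1.79e-09). KLK2 stood at 56.1 to 89.6 CPM in 22Rv1 and, in LTAD, at 85.4 and 71.4 after vehicle and 355 and 291 after DHT (-1.23 ± 0.20, adjusted p = 2.63e-05). HPGD, which degrades prostaglandins, had 12 LTAD reads, all in the DHT PSF-RIP library (7.46 ± 0.28, and 11.48 without it). AFF3 (4.51 ± 0.24) and the proteoglycan SPOCK1 (3.50 ± 0.20) were higher in 22Rv1, and the sorbitol dehydrogenase SORD (-2.93 ± 0.16) was higher in LTAD.

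Genes of glucuronidation, a route by which androgens are inactivated, differed in both directions. UGT2B17 (chr4:69402903-69434245, minus strand) had no read in 22Rv1 and stood at 4.81, 7.11, 9.56 and 4.12 CPM in LTAD, at least 34.7-fold higher. UGT2B15 stood at 13.4, 2.07, 7.33 and 1.44 CPM in 22Rv1 and at 33.7, 19, 34.3 and 14.1 in LTAD (-2.28 ± 0.23). Both lines had less UGT2B15 after DHT than after vehicle in both assays. These genes are near-identical in sequence, so reads could be split between them and each value is uncertain. UGT1A1 (6.25 ± 0.37) and UGT1A6 (6.26 ± 0.44), whose transcripts share exons and so may be 1 signal, were higher in 22Rv1. UGT1A1 had 5 LTAD reads, all in the DHT PSF-RIP library, and its value was 8.47 without it. The steroid dehydrogenase HSD17B11 (3.62 ± 0.20) and SRD5A3 of the steroid reductase family (1.52 ± 0.12) were higher in 22Rv1 too. Of the 40 genes listed for androgen synthesis and inactivation, 14 were tested, and 26 were not in the files or under the filter. Of the 14, 6 were higher in each line. Of all genes, 39.3% were higher in 22Rv1 and 32.4% in LTAD.

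Receptors and ligands of growth factors were more often higher in 22Rv1. Of 30 tested, 21 were higher in 22Rv1 and 7 in LTAD, beside 39.3% and 32.4% of all genes, with a median of 1.19, and the counts were the same without the LTAD DHT PSF-RIP library. The ephrin receptor EPHA3 stood at 844, 657, 756 and 550 CPM in 22Rv1 and at 28.9, 12.6, 13.5 and 11.9 in LTAD (5.53 ± 0.15), with no overlap. FGFR3 stood at 102 to 241 CPM in 22Rv1 and had 22 reads in LTAD, 18 of them in the DHT PSF-RIP library (7.36 ± 0.25, and 8.73 without it). FGFR2, without a read in 22Rv1, was the reverse. The insulin receptor substrates IRS1 (4.24 ± 0.21) and IRS2 (3.67 ± 0.18), which carry the signal of insulin and IGF receptors, were higher in 22Rv1. They are counted in the PI3K list below and not among the 30.

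Of 28 tested genes of the PI3K pathway, 12 were higher in LTAD and 6 in 22Rv1, beside 32.4% and 39.3% of all genes, with a median of -0.07. Without the LTAD DHT PSF-RIP library the counts were 9 and 6, and 9 of 28 is near the share of all genes. PIK3CD, the delta catalytic subunit (chr1:9711790-9789172, plus strand), had 7 reads in 22Rv1 and stood at 72.1, 83.7, 99.7 and 143 CPM in LTAD (-7.87 ± 0.24). The regulatory subunit PIK3R1 was also higher in LTAD (-2.69 ± 0.12). In the other direction, the list holds IRS1 and IRS2, given above as higher in 22Rv1.

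Among the ETS transcription factors, the PEA3 members divided between the lines. ETV1 stood at 26.2, 17.9, 15 and 10.5 CPM in 22Rv1 and at 178, 335, 164 and 277 in LTAD (-3.80 ± 0.21). ETV4 stood at 14.5 to 17.8 CPM in 22Rv1 and had 8 reads in LTAD (5.13 ± 0.33), and ETV5 was higher in 22Rv1 too (4.04 ± 0.31). FEV, an ETS factor of serotonergic neurons, had a ratio of 56.8 (interval 19.1 to 278.5) in favour of 22Rv1. In the whole family of 19 tested genes, 10 were higher in 22Rv1 and 5 in LTAD, beside 39.3% and 32.4% of all genes. Of 34 WNT pathway genes, 18 were higher in 22Rv1 and 11 in LTAD, the latter at the share of all genes. The WNT receptors FZD1 (2.07 ± 0.12), FZD5 (2.39 ± 0.12) and FZD8 (3.13 ± 0.20) were higher in 22Rv1. FZD2 had 1 LTAD read, a ratio of 287 (51.0 to 11366).

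Position-defining and germline genes were line-specific in small numbers. Of 15 tested HOX genes, 8 were higher in 22Rv1 and 4 in LTAD, beside 39.3% and 32.4% of all genes. HOXC10 (ratio 344, interval 61.3 to 13639) and HOXB7 (ratio 107.5, interval 18.9 to 4289) had 1 LTAD read each, and HOXA10 (-1.87 ± 0.18) and HOXB9 (-2.24 ± 0.22) were higher in LTAD. Cancer-testis genes are normally silent outside the germline. Of 14 tested, 5 were higher in 22Rv1 and 7 in LTAD, beside 39.3% and 32.4% of all genes. MAGEA1 had a ratio of 1253 (224.5 to 49539) and CTAG2 of 335.5 (92.5 to 2777) in favour of 22Rv1, while MAGEA4 had 5 LTAD reads, all in the DHT PSF-RIP library (8.63 ± 0.29, and 11.60 without it). MAGEA10 had no read in 22Rv1, as given above. Members of the MAGEA family are similar in sequence, and reads may be shared among them.

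Genes of the interferon response and antigen presentation were mostly higher in LTAD. Cells switch on this group when interferon or foreign nucleic acid is sensed, through factors that include STAT2 and IRF9. Of 38 tested genes, 28 were higher in LTAD and 5 in 22Rv1, beside 32.4% and 39.3% of all genes, with a median of -1.40. Without the LTAD DHT PSF-RIP library the counts were 26 and 3 of 35. IFIT1, an RNA-binding antiviral protein (chr10:91152303-91166244, plus strand), had no read in 22Rv1 and stood at 21.6, 9.48, 11 and 10.4 CPM in LTAD, at least 59.2-fold higher. IFIT3 was at least 28.55-fold higher, at 3.61 to 5.88 CPM. IFI6 (chr1:27992572-27998724, minus strand) had 11 reads in 22Rv1 and stood at 57.7, 35.5, 32.4 and 24.2 CPM in LTAD (-5.54 ± 0.30). SAMD9 had 1 read in 22Rv1, a ratio of 176 (31.2 to 6983).

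Factors that relay the signal differed less, with -1.02 ± 0.14 for STAT2 and -0.80 ± 0.21 for IRF9, both higher in LTAD. LGALS3BP, a secreted glycoprotein induced by interferon, had 9 reads in 22Rv1 and 57.7 to 96.7 CPM in LTAD (-7.07 ± 0.28). IFITM3, a membrane restriction factor, was also higher in LTAD (-2.78 ± 0.15). B2M, the light chain of antigen-presenting molecules, was slightly higher in 22Rv1 (0.32 ± 0.12, adjusted p = 0.0221) and in 3 of the 4 combinations. Among other alternatives, the B2M call ended with DESeq2 (adjusted p = 0.059), from inputs alone (0.36, adjusted p = 0.0828), from PSF-RIP alone (0.17, adjusted p = 0.385) and from DHT libraries alone (0.0573, adjusted p = 0.72). In LNCaP, IFI6 stood at 130 to 351 CPM and IFIT1 at 16.4 to 66.4.

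Promoters of these genes are shown because many members differed in one direction and the group is known for a shared element. The interferon-stimulated response element holds a pair of GAAA with 2 bases between, so GAAA, any 2 bases and GAAA again were searched on both strands of the RefSeq promoters (GRCh38.p14), each reaching from 250 bases before a gene's start to 50 after. It was found in 3.65% of 27305 promoters, and in 2.53% of the 9685 tested genes with a promoter entry. Of the 38 tested members 27 had a promoter entry, of which 18 held a match: 13 of 21 among those higher in LTAD and 5 of 6 among the others. A match is a description of letters, not a site in use. The sequences below run 5′ to 3′ on the gene's strand and cover positions -170 to -71 from the start, with matches in capitals, read from either strand. IFIT1 (chr10:89392453-89392552, plus strand) and IFIT3 (chr10:89327827-89327926, plus strand) hold 2 matches each, IFI6 (chr1:27672263-27672362, minus strand) holds 3, and B2M (chr15:44711347-44711446, plus strand), which was not higher in LTAD, holds 2 that overlap.
IFIT1: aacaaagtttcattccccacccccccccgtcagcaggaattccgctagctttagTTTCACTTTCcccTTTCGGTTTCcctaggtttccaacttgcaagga
IFIT3: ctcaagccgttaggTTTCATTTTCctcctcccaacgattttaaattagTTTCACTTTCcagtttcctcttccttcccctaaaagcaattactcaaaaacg
IFI6: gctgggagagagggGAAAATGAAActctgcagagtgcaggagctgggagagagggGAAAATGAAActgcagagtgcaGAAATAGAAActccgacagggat
B2M: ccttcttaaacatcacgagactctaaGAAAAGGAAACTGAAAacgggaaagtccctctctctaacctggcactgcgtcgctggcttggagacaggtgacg

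**Figure D3:**
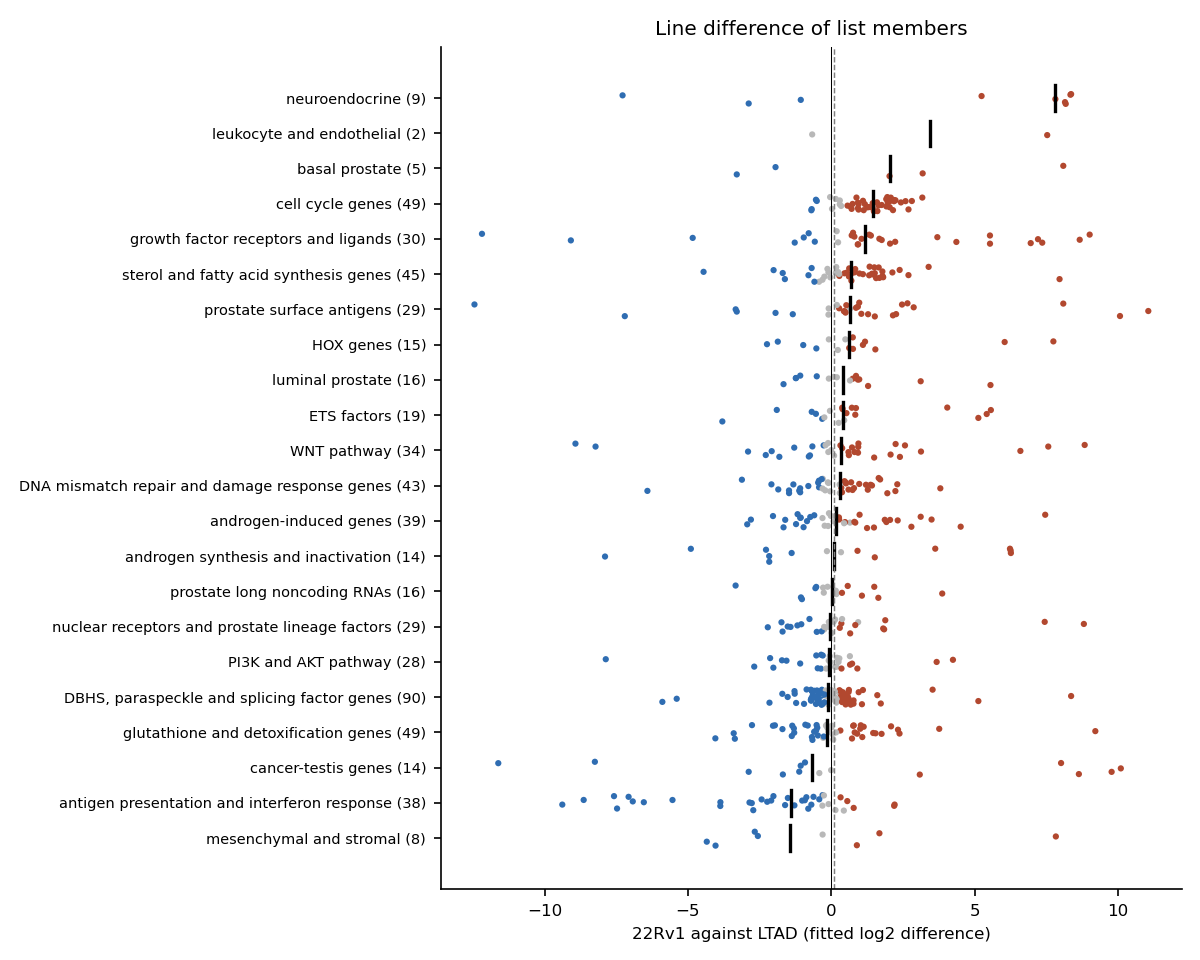
Each point is a tested member of 1 of 22 gene lists (number tested in brackets), placed by its fitted log2 difference of 22Rv1 against LTAD, red where called higher in 22Rv1, blue where called higher in LTAD and grey where not called. Black bars mark list medians, from -1.43 for mesenchymal and stromal markers and -1.40 for interferon genes to 1.44 for cell cycle genes and 7.81 for neuroendocrine markers, and the dashed line marks the median of all genes at 0.08. The neuroendocrine median includes genes that could pass the filter only through 22Rv1.

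Genes of the cell cycle were mostly higher in 22Rv1. Of 49 tested, 39 were higher in 22Rv1 and 4 in LTAD, beside 39.3% and 32.4% of all genes, with a median of 1.44, and both counts were the same without the LTAD DHT PSF-RIP library. CCND1, which encodes cyclin D1 and drives entry into the cycle (chr11:69455873-69469242, plus strand), stood at 2808, 3038, 2592 and 2867 CPM in 22Rv1 and at 301, 352, 272 and 332 in LTAD (3.17 ± 0.11, adjusted p = 1.89e-14). Every 22Rv1 library stood above every LTAD library. The proliferation marker MKI67 (1.99 ± 0.12), the DNA topoisomerase TOP2A (2.04 ± 0.11) and the kinetochore gene CENPF (2.19 ± 0.13) were higher in 22Rv1. In bulk RNA, more cycling cells and more RNA per cycling cell cannot be told apart.

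DNA repair genes held large differences in both directions without a common lean. Of 43 tested, 20 were higher in 22Rv1 and 15 in LTAD, beside 39.3% and 32.4% of all genes, with a median of 0.29, and 10 in each direction differed at least 2-fold. MGMT, which removes alkyl groups from guanine (chr10:131265448-131565884, plus strand), had 6 reads in 22Rv1 and 31.8 to 45.8 CPM in LTAD (-6.42 ± 0.30). SESN1, a stress-response gene, stood at 10.3 to 14.7 CPM in 22Rv1 and at 49.3 to 61.8 in LTAD (-2.09 ± 0.14), and the groups did not overlap.

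Lipid synthesis leaned to 22Rv1 and detoxification to neither line. Of 45 tested sterol and fatty acid genes, 28 were higher in 22Rv1 and 7 in LTAD, beside 39.3% and 32.4% of all genes, with a median of 0.70. Examples were ELOVL6, which lengthens fatty acids (2.69 ± 0.13), and the sterol enzymes MSMO1 (2.13 ± 0.12) and CYP51A1 (1.81 ± 0.11), while the desaturase SCD5 was higher in LTAD (-4.46 ± 0.22). Of 49 glutathione and detoxification genes, 18 were higher in 22Rv1 and 21 in LTAD, beside the same 39.3% and 32.4%. The aldehyde dehydrogenases pointed both ways, with ALDH3A2 higher in 22Rv1 (3.76 ± 0.12) and ALDH2 higher in LTAD (-4.05 ± 0.20). SOD2 of the mitochondria was higher in 22Rv1 (2.08 ± 0.11) and GSTM3 higher in LTAD (-3.37 ± 0.17).

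Markers of neuroendocrine cells were in sum higher in 22Rv1. Of 20 markers, 16 were in the files and 9 were tested, 6 of them higher in 22Rv1 and 3 in LTAD. Of all genes, 39.3% were higher in 22Rv1 and 32.4% in LTAD. Counting those not in the files, 5 of the 20 markers had no read in 22Rv1 and 9 none in LTAD. The summed level of the 9 tested markers was 420 to 675 CPM in 22Rv1 and 103 to 188 in LTAD. SRRM4 alone held 173 to 352 CPM of the 22Rv1 sum. SRRM4, a neuronal splicing factor (chr12:119419300-119600856, plus strand), stood at 254, 173, 352 and 261 CPM in 22Rv1 and had 15 reads in LTAD, all in the DHT PSF-RIP library (8.36 ± 0.33, and 13.16 without it). The granule protein SCG3 stood at 91 to 111 CPM in 22Rv1 (8.34 ± 0.26, and 9.50 without that library) and the synaptic vesicle protein SYP at 79.8 to 93.3 against 1.2 to 3.16 in LTAD (5.24 ± 0.19). Other markers had lower levels: CHGA stood at 7.58 to 10.1 CPM in 22Rv1 (at least 51.8-fold higher), CHGB at 16 to 38.4 (ratio 375, interval 66.8 to 14840) and SNAP25 at 6.89 to 8.7 (at least 48.9-fold higher). The 3 markers higher in LTAD were the neuropeptide gene NTS (ratio 151, interval 41.6 to 1256), the Notch ligand gene DLL3 (-2.88 ± 0.33) and the neuronal enolase gene ENO2 (-1.07 ± 0.12). SRRM4, CHGA, CHGB and SNAP25 could pass the filter only through 22Rv1, and NTS only through LTAD. Their being called follows from that choice, so the counts of this list are not a result and only the levels are informative.

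Luminal and basal markers differed in both directions. Of 16 tested luminal markers, 7 were higher in 22Rv1 and 5 in LTAD, beside 39.3% and 32.4% of all genes. Their sum was 4341 to 4855 CPM in 22Rv1 and 3276 to 7245 in LTAD. KRT8 was higher in LTAD (-1.67 ± 0.12), and KRT19 (5.55 ± 0.22) and CLDN7 (1.28 ± 0.13) in 22Rv1. The 5 tested basal markers summed to 174 to 230 CPM in 22Rv1 and 55.3 to 100 in LTAD. Among them, CD44 had 6 LTAD reads, all in the DHT PSF-RIP library (8.09 ± 0.30, and 11.62 without it), DST was higher in 22Rv1 (2.03 ± 0.18), and the integrins ITGA6 (-1.95 ± 0.16) and ITGB4 (-3.30 ± 0.32) were higher in LTAD.

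Of 8 tested mesenchymal and stromal markers, 3 were higher in 22Rv1 and 4 in LTAD, beside 39.3% and 32.4% of all genes. Their sum was 120 to 158 CPM in 22Rv1 and 387 to 556 in LTAD. FN1 (-4.34 ± 0.17), VIM (-2.56 ± 0.16) and COL1A1 (-2.67 ± 0.21) were higher in LTAD. LUM (ratio 352, interval 62.7 to 13939) and SNAI2 (1.68) were higher in 22Rv1. Of 16 leukocyte and endothelial markers, 11 were in the files and 2 were tested. Counting those not in the files, 8 of the 16 had no read in 22Rv1 and 9 none in LTAD. The sum of the 2 tested markers was 17.2 CPM or less in every library. Of 29 tested surface antigens of prostate tumours, 19 were higher in 22Rv1 and 6 in LTAD, beside 39.3% and 32.4% of all genes, among them TSPAN8 and ACKR3 given above and the complement regulator CD46 (2.65 ± 0.11).

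The proteins and RNAs that work with PSF differed in both directions. NONO, a DBHS partner of PSF, stood at 146 to 176 CPM in 22Rv1 and 197 to 272 in LTAD (-0.63 ± 0.11, adjusted p = 5.14e-05), and PSPC1, the third member, was higher in 22Rv1 (0.50 ± 0.14, adjusted p = 0.00319). NEAT1, the long noncoding RNA that builds paraspeckles (chr11:65190269-65213009, plus strand), stood at 332, 301, 217 and 177 CPM in 22Rv1 and at 1129, 753, 460 and 345 in LTAD (-1.28 ± 0.12). The NEAT1 level in LNCaP was above both, at 1272 to 3846 CPM. MALAT1, a nuclear speckle RNA, stood at 14964 to 28606 CPM in 22Rv1 and at 7926 to 20359 in LTAD (0.68 ± 0.16, adjusted p = 0.000915).

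Among 90 tested genes for DBHS, paraspeckle and splicing factors, 30 were higher in 22Rv1 and 39 in LTAD, beside 39.3% and 32.4% of all genes, with a median of -0.11. The largest differences of the list were in splicing regulators outside the DBHS family. SRRM4 and MBNL2 (5.13 ± 0.28) were higher in 22Rv1, and the muscle-type regulator RBM24 (-5.89 ± 0.30) and KHDRBS3 (-5.39 ± 0.34) were higher in LTAD. Of 16 tested long noncoding RNAs of the prostate list, 6 were higher in 22Rv1 and 5 in LTAD, near the 39.3% and 32.4% of all genes. SNHG5 (3.87 ± 0.31) and GAS5 (28.9 to 81.1 CPM against 8.59 to 33.7), both hosts of small nucleolar RNAs, were higher in 22Rv1, and DANCR (-1.03 ± 0.12) and PCAT6 (-3.34 ± 0.25) in LTAD.

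Whether the lines differ otherwise in PSF-RIP than in input was tested with a term for line by assay. No gene passed (0%), with 1008 genes at an unadjusted p under 0.05, 1 gene called by DESeq2, and a smallest adjusted p of 0.055. The 3 genes with the smallest p were TUBA1B, PPA1 and RBM41. TUBA1B, an alpha-tubulin, was 461 and 551 CPM in the 22Rv1 inputs against 120 and 138 in the LTAD inputs, but 180 and 203 against 131 and 128 in PSF-RIP. Tubulin genes are alike in sequence, and this value is uncertain.

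The response to DHT differed between the lines at a small share of genes. It was higher in 22Rv1 at 171 genes (1.34%) and higher in LTAD at 228 (1.78%), and 1668 genes had an unadjusted p under 0.05. Here each line and treatment may be 1 culture read by both assays, so these p-values state how well the assays agree and not how cultures vary. DESeq2 called 181 genes in place of 399, and 164 passed without the LTAD DHT PSF-RIP library.

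Androgen-induced genes responded more strongly in LTAD. Of 39 tested, 24 had the larger response in LTAD and 1 in 22Rv1, beside 1.78% and 1.34% of all genes, and the median response was 2.00 in LTAD and 0.74 in 22Rv1 (log2 of DHT over vehicle, mean of the assays). The level after DHT was above that after vehicle in both assays for 38 of them in LTAD and 37 in 22Rv1. Of all 12778 genes, this held for 4134 in LTAD and 3689 in 22Rv1. The members named next were chosen after their values were seen. PMEPA1, an androgen-induced inhibitor of TGF-beta signalling (chr20:56223448-56285031, minus strand), went from 54.1 to 378 CPM in LTAD input and from 81.9 to 540 in PSF-RIP, and from 979 to 1254 and 1370 to 1798 in 22Rv1. The PMEPA1 difference in response was -2.37 ± 0.20 (adjusted p = 8.18e-12), so that LTAD responded more and yet stayed below 22Rv1.

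TMPRSS2, a surface protease whose promoter drives ETS fusions in many prostate tumours, went from 16.8 to 118.5 CPM in LTAD input and from 46.9 to 87.6 in 22Rv1 input (-2.82 ± 0.26). The growth factor receptor gene IGF1R went from 6.01 to 86.1 and from 91.4 to 159 (-2.66 ± 0.24). ABCC4, a drug and prostaglandin exporter, went from 76.9 to 328.5 CPM in LTAD input and from 20.7 to 20 in 22Rv1 input (-2.15 ± 0.24). The kallikreins KLK2 (-1.48 ± 0.20) and KLK3 (-1.66 ± 0.44, adjusted p = 0.0219) had the larger response in LTAD as well.

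The co-chaperone FKBP5 responded strongly in both lines, from 330 to 2396 CPM in 22Rv1 input and from 84.2 to 1182 in LTAD input, and its term was -0.96 ± 0.19 (adjusted p = 0.00152). The single gene with the larger response in 22Rv1 was DBI, an acyl-CoA-binding protein, with 104 to 613 CPM against 165 to 575 (0.91 ± 0.20, adjusted p = 0.00321). Without the LTAD DHT PSF-RIP library, 19 of 38 androgen-induced genes had a larger response in LTAD and none had it in 22Rv1, and without the LTAD vehicle PSF-RIP library 14 of 39 did.

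Cell cycle genes showed the opposite sign. Of 49 tested, 22 had the higher response in 22Rv1 and 1 in LTAD, beside 1.34% and 1.78% of all genes. The median response was -0.54 in LTAD and 0.13 in 22Rv1, and 4 genes in LTAD and 25 in 22Rv1 were higher after DHT in both assays. Of all 12778 genes, 4134 in LTAD and 3689 in 22Rv1 were. The mitotic kinase CDK1 (chr10:62538212-62554610, plus strand) went from 132 to 64 CPM in LTAD input and from 97.2 to 50.1 in PSF-RIP, while it went from 50 to 57.2 and from 41.9 to 50.1 in 22Rv1 (1.22 ± 0.22, adjusted p = 0.000208). TYMS, which makes thymidylate, went from 96.2 to 44.2 CPM in LTAD input and stayed at 161 in 22Rv1 input (1.05 ± 0.20). EXO1, a nuclease of mismatch repair and replication, went from 20.4 to 9.48 in LTAD input and from 43.3 to 50.3 in 22Rv1 input (1.41 ± 0.25).

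The exception was CDK6, a kinase of the G1 phase, which went from 20.4 to 52.1 CPM in LTAD input and from 42.7 to 35.2 in 22Rv1 input (-1.55 ± 0.26). These counts lean on the PSF-RIP libraries: 5 cell cycle genes had the higher response in 22Rv1 without the LTAD DHT PSF-RIP library and 6 without the LTAD vehicle PSF-RIP library. The thinned libraries gave no call in either list. Each of the fits without a library leaves 1 LTAD treatment with its input alone, which is assumed to vary like the others.

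**Figure D4:**
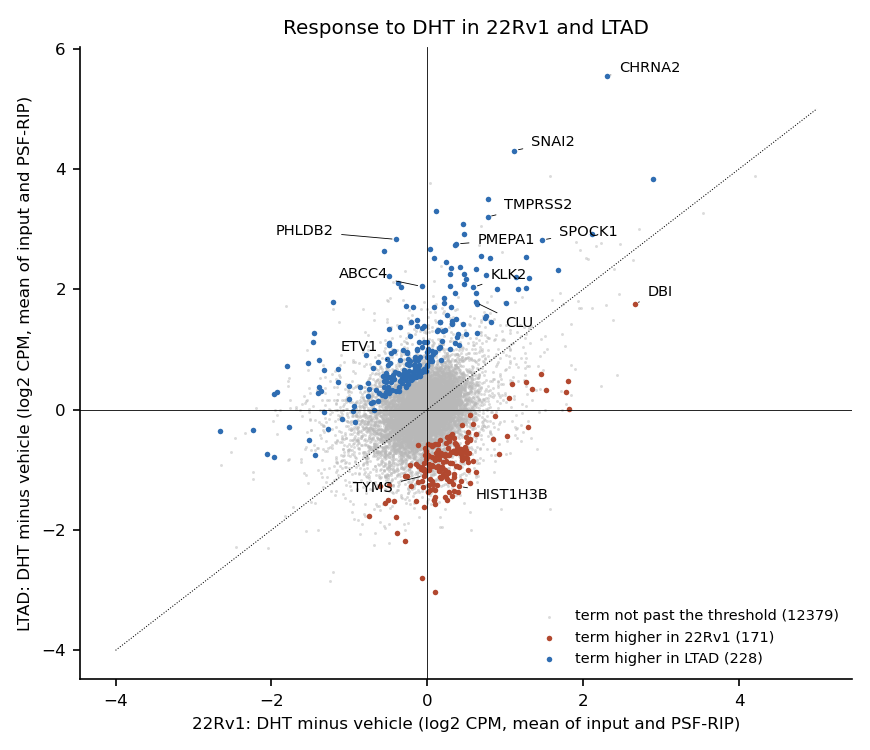
Each point is 1 of 12778 genes, placed by its DHT minus vehicle difference in log2 CPM in 22Rv1 (x axis) and in LTAD (y axis), each the mean of input and PSF-RIP. Red points (171) had a higher response in 22Rv1 and blue points (228) in LTAD, and CHRNA2, SNAI2 and PMEPA1 lie far above the dotted line of equal response.

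The lowest and highest terms need their reads beside them. The 5 lowest were CLU, SRRM4, SV2A, BMP2 and TNC, from -6.59 to -5.44, and all are 22Rv1 genes at or near 0 in LTAD. CLU, a secreted chaperone, had 0, 0, 0 and 44 reads in LTAD, and SRRM4, BMP2 and TNC likewise had LTAD reads in the DHT PSF-RIP library alone. SV2A had 2 in the DHT input and 12 in that library. Without that library the adjusted p was 0.099 for SV2A and 1 for CLU, SRRM4, BMP2 and TNC. At the other end stood NGFR, HIST2H3D, MT-TE, CENPQ and MND1, from 3.96 to 2.41, each with 1 to 9 reads in the LTAD DHT PSF-RIP library. Without that library the terms were 1.46 for MND1 (adjusted p = 0.467), 1.96 for MT-TE (adjusted p = 0.286), 3.64 for HIST2H3D (adjusted p = 0.114) and 8.02 for CENPQ (adjusted p = 0.0326), and NGFR was not tested.

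A further 4 genes were chosen after their values were seen. CHRNA2, a nicotinic receptor subunit, went from 1.2 to 87.7 and from 1.47 to 81.1 CPM in LTAD and from 61.6 to 296.5 and 69.9 to 357 in 22Rv1 (-3.55 ± 0.36, adjusted p = 1.2e-09). SNAI2, a transcription factor of mesenchymal transition, went from 1.2 to 41.9 CPM in LTAD input and from 27.4 to 64.1 in 22Rv1 input (-3.51 ± 0.44). PHLDB2 went from 9.62 to 62.4 and from 18.3 to 15.2 (-3.45 ± 0.31). HIST1H3B, a histone gene expressed in S phase, went from 153 to 51.3 in LTAD input and from 387 to 456 in 22Rv1 input (1.67 ± 0.22, adjusted p = 9.52e-07). Without the LTAD DHT PSF-RIP library the terms were -3.78 for CHRNA2, -3.90 for SNAI2, -3.12 for PHLDB2 and 1.83 for HIST1H3B, each with an adjusted p under 0.05. CHRNA2 and SNAI2 had 1 read each in the LTAD vehicle input. In the thinned libraries no adjusted p was under 0.05, and the terms were -4.37 for CHRNA2, -0.75 for SNAI2 (adjusted p = 0.97), -3.16 for PHLDB2 and 2.47 for HIST1H3B.

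The differences were unevenly spread over the genome. The share of tested genes higher in 22Rv1 ran from 20.5% on chromosome 21 and 23.1% on chromosome 14 to 55.9% on chromosome 6 and 56.5% on chromosome 12, and the median log2 difference ran from -0.47 on chromosome 21 to 0.58 on chromosome 6. On chromosome X, 26.6% were higher in 22Rv1 and 44.6% in LTAD, beside 39.3% and 32.4% of all genes. DNA copy number was not measured here. Of the 24 tested rows of the mitochondrial genome, 83.3% were higher in 22Rv1, beside 39.3% of all genes. Mitochondrial rows took 24.7% of the reads used in the 22Rv1 vehicle input and 19.7% in its DHT input. The shares were 13.4% and 10.8% in the LTAD vehicle and DHT inputs. In the PSF-RIP libraries these rows took 1.0% (vehicle) and 0.62% (DHT) in 22Rv1, and 0.47% and 0.23% in LTAD.

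Among 627 runs of 20 neighbouring tested genes, the run with the highest median lies at chr5:140186659-140582618, from PCDHA4 to PCDHB11, with a median of 7.54 and 19 of 20 genes higher in 22Rv1. It was chosen for that rank and gets no test. The protocadherins there are cell-adhesion proteins used for identity by neurons. All 15 tested PCDHA genes were higher in 22Rv1, with 2236, 1486, 9376 and 3689 reads in 22Rv1 against 1, 0, 37 and 23 in LTAD and 7 to 31 in LNCaP. PCDHA transcripts share their last exons, as PCDHG transcripts do, so the same reads may be counted for each and these are not 15 separate findings. All 22 PCDHG genes were higher in 22Rv1 as well, from 0.87 to 1.95.

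The PCDHB genes each have an exon of their own and varied singly. Of 12 tested, 7 were higher in 22Rv1 and 3 in LTAD, beside 39.3% and 32.4% of all genes. PCDHB5 had 0, 0, 7 and 4 reads in 22Rv1 and 32, 90, 500 and 664 in LTAD (-6.64 ± 0.28), while PCDHB2 (0.66 ± 0.15) and PCDHB10 (1.48 ± 0.32) were higher in 22Rv1. The lowest run lies at chr10:129705325-135234174, from PTPRE to MTG1, with a median of -1.19 and 16 of 20 genes higher in LTAD, and it includes MGMT.

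Other features were described by class of gene. The nearness of LNCaP and the ratio of PSF-RIP to input use the same 22Rv1 and LTAD levels that define the classes, and so are not independent of them. LNCaP lay nearer to LTAD than to 22Rv1 at 2317 of the 2683 genes at least 2-fold higher in 22Rv1 (86.4%), at 1588 of the 1776 at least 2-fold higher in LTAD (89.4%), at 1987 of the 3615 genes not called, and at 9306 of all 12778 tested genes (72.8%). The median exonic length was 3377 bases for the first class, 3094.5 for the second and 3180.5 for all tested genes. The median log2 ratio of PSF-RIP to input was 0.02, 0.17 and 0.07 in these classes. A PSF-CLIP peak in at least 1 of the 4 LNCaP lists lay within 46.1% of the genes at least 2-fold higher in 22Rv1, 55.2% of those higher in LTAD and 57.2% of all tested genes. The LNCaP level itself differed between these classes, with medians of 3.42, 4.80 and 5.02 in log2 CPM, and its part in the shares with a peak was not tested.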

How the data were processed

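RNA of PSF-RIP and input libraries was read in 8 samples of 22Rv1 and LTAD. The authors deposited whole-number counts of reads per transcript, per the file headers. Reads were mapped to hg19 (GRCh37), and TopHat2 2.1.0, Bowtie2 2.2.6 and Bowtie are named, per the submitters' processing notes, without their roles. The libraries were strand-specific, per the labels' protocols. For the LNCaP CLIP peaks, the authors deposited a score for each peak, used here to read positions only.

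From rows of genes, the transcript with the highest mean count was taken per symbol. The members, gene lists and tests were chosen with earlier results of these data known. The test of the counts was that of edgeR 4.0.16 (under R 4.3.3, TMM scaling, filterByExpr with a minimum count of 10, quasi-likelihood test, Benjamini-Hochberg adjustment) with terms for assay, treatment and line. Terms for line by assay and line by treatment were added in separate fits. limma 3.58.1 and DESeq2 1.42.0 served as alternatives, with other filters, scalings, transcripts, subsets and thinned depth. The code was tested on simulated data.

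Genes were named by rule: the 12 largest differences in each direction among genes at or above the median level, the 6 with most reads among those with at most 3 reads in a line, the 5 highest and lowest terms, and up to 4 members of each of 22 lists by smallest p. Genes discussed beyond these for their known roles were chosen after their values were seen. Promoters came from RefSeq (GRCh38.p14) and gene positions from the files (hg19), and no coordinates were converted. No IgG control was used here, so enrichment by the antibody was not assessed. Results for some of the genes this rule names are not reported here.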

Additional observations from a re-analysis of the deposited data

Results flagged for a closer look

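The response to DHT differed between 22Rv1 and LTAD at 399 genes by edgeR's quasi-likelihood test with Benjamini-Hochberg adjustment, and each value here is the log2 response in 22Rv1 less that in LTAD. The lowest values were -6.59 for CLU, -6.19 for SRRM4, -5.96 for SV2A, -5.71 for BMP2 and -5.44 for TNC, which rest on reads of the LTAD DHT PSF-RIP library. Among genes with a larger response in LTAD, the value was -3.55 for CHRNA2, -3.51 for SNAI2, -3.45 for PHLDB2, -2.82 for TMPRSS2, -2.66 for IGF1R, -2.37 for PMEPA1 and -2.15 for ABCC4. It was -1.90 for AFF3, -1.66 for KLK3, -1.55 for CDK6, -1.53 for SPOCK1, -1.48 for KLK2, -1.33 for ETV1, and -1.06 for IRS2. Smaller values were -0.96 for FKBP5, -0.92 for SORD and -0.67 for HOXB13. FGFR3 had -2.45, with 18 of its 22 LTAD reads in the LTAD DHT PSF-RIP library, and -2.10 (adjusted p = 0.749) without that library.

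In the other direction, the value was 0.70 for CLDN7, 0.91 for DBI, 1.05 for TYMS, 1.22 for CDK1, 1.41 for EXO1 and 1.67 for HIST1H3B. The highest values were 2.41 for MND1, 2.58 for CENPQ, 2.62 for MT-TE, 3.41 for HIST2H3D and 3.96 for NGFR, all with fewer than 10 reads in the LTAD DHT PSF-RIP library. What lies behind these differences was not tested.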

How the results depend on the processing

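The lines differed in the same direction under most alternatives, and of the 9163 genes called, 8380 were also called, with the same sign, when input and PSF-RIP counts of a culture were summed. With line and treatment as a random block in limma-voom, 9127 were. The fitted correlation within a block was -0.05, so that fit hardly differed from one that treats the libraries as independent. The fit of sums left 1 residual degree of freedom. Neither fit can show how separate cultures vary. From input libraries alone, 3230 genes were higher in 22Rv1. Thinned to the shallowest library, 1906 genes were higher in 22Rv1, 1436 in LTAD, and 0 differed in DHT response. Against a 2-fold threshold (glmTreat, chosen after seeing the data), 2057 and 1214 passed. Leaving out 1 library in turn gave 4490 to 5283 genes higher in 22Rv1 and 3703 to 4191 in LTAD.

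The line-by-assay term, with 0 genes, gave 1 with DESeq2, 1 with RLE size factors, 44 with no filter and 0 to 3 with 1 library left out. The DHT term, with 399, gave 181 with DESeq2 and 139 to 430 with 1 library left out: 240 without 22Rv1 vehicle PSF-RIP, 139 without 22Rv1 DHT PSF-RIP, 230 without LTAD vehicle PSF-RIP and 164 without LTAD DHT PSF-RIP. The cause was not tested.

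Among single genes, the line difference changed sign where it was near 0 and at some genes where it was larger. RBM41 gave -0.19 with DESeq2, -0.0281 with RLE, -0.997 from inputs, -0.33 when thinned, and -0.29 to 0.28 with 1 library left out, below 0 without each PSF-RIP library. FOXA1 gave -0.0028 from inputs and -0.0061 from DHT libraries, and PPA1 gave 0.58 from inputs against -0.59 in the main fit. SFPQ gave -0.13 from PSF-RIP, -0.0134 from vehicle libraries, -0.18 from sums and -0.0324 to 0.10 with 1 library left out, the lowest without the LTAD DHT input. HOXB13 gave 0.22 from vehicle libraries and -0.22 to 0.0151 with 1 left out, above 0 without the 22Rv1 DHT input or the 22Rv1 DHT PSF-RIP. Vehicle libraries gave -0.0521 for CENPQ, -0.032 for MND1 and 0.94 for PHLDB2. The main fit gave 0.90, 0.90 and -0.98 for these, and MND1 and PHLDB2 were called there. The inputs, at 1073228 to 3014049 mapped reads, limit what can be seen of low genes.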
